A study of Homo sapiens with 6 samples.

Results

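The microRNA host transcripts MIR31HG, VMP1 with miR-21, MIR22HG and MIR17HG are 4 of the 174715 regions considered, which are these 4 intervals and the strand-specific 10 kb windows that held any crosslink event. They were taken by name and by fixed intervals on hg19, with no threshold on their counts. Earlier results of these data were known when they were chosen. The intervals are chr9:21454267-21559697 on the minus strand for MIR31HG, chr17:57784863-57918698 on the plus strand for VMP1, chr17:1614798-1619566 on the minus strand for MIR22HG and chr13:92000074-92006829 on the plus strand for MIR17HG. They are 105431, 133836, 4769 and 6756 nt long. The study mapped where QKI-5, a nuclear RNA-binding protein, touches RNA in BEAS2B, an immortalised line of human bronchial epithelial cells. Cells were crosslinked with UV light and the libraries were made by iCLIP, in which reverse transcription stops at the crosslinked base, so that each cDNA marks 1 crosslink event at 1 nucleotide. A group of 3 libraries was precipitated with an antibody to QKI-5 and a group of 3 control libraries was made with no antibody. All 6 libraries came from the same cell line, and the labels give no difference in genotype, drug or time between them. RNA was trimmed with RNase A at a high or a low concentration, and which library had which is not stated.

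A primary microRNA is a long transcript in which a short hairpin is cut out in the nucleus by the Drosha and DGCR8 complex, after which Dicer in the cytoplasm frees the mature microRNA. Some hosts are noncoding RNAs whose main known product is the microRNA, and others are protein-coding genes with the hairpin in an intron or close to the 3′ end. QKI-5 is the nuclear isoform of the STAR family protein Quaking, it binds an element with the core ACUAA, and it is known best as a regulator of splicing.

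A mature microRNA from 1 arm of each of the 9 host hairpins is shown first because these transcripts are processed to microRNAs, 5′ to 3′ from RefSeq (GRCh38.p14), with the seed, bases 2 to 8, in capitals. In MIR17HG, miR-17 and miR-20a share a seed, as do miR-19a and miR-19b, while miR-18a and miR-92a have seeds of their own. The microRNAs of the other 3 hosts share no seed with these or with each other.
hsa-miR-17-5p: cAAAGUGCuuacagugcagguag
hsa-miR-20a-5p: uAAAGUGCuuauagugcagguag
hsa-miR-18a-5p: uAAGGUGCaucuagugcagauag
hsa-miR-19a-3p: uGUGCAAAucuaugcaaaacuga
hsa-miR-19b-3p: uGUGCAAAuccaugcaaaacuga
hsa-miR-92a-3p: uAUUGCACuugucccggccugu
hsa-miR-21-5p: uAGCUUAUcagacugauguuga
hsa-miR-22-3p: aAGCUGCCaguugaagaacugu
hsa-miR-31-5p: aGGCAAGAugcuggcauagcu

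The hairpins of miR-21, miR-31 and miR-20a follow, since the results below turn on whether crosslinks fall inside such stems. The capitals mark the mature sequence listed above.
MIR21: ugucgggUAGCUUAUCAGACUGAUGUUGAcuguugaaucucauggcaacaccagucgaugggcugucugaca
MIR31: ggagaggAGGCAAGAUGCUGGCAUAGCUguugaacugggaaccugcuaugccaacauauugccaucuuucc
MIR20A: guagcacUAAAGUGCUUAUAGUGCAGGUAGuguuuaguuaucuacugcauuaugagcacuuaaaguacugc
The letters ACUAA occur in 1 of the 8 host hairpins with a RefSeq sequence to search, that of miR-20a, where they span the 5′ end of the mature microRNA. Of all 1562 human hairpins listed there, 51 held them, or 3.27%. UAAC was in 0 of the 8 host hairpins and in 12.5% of all, and UAAU was in that of miR-17 and in 15.2% of all. The given strand of the RNA was searched, and matches of the 3 motifs may overlap each other. A match describes letters and is not a binding site.

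The QKI-5 libraries held 7283982, 2143279 and 2889146 events and the controls 137926, 41475 and 29810. Values are given as events and as EPM, events per 1000000 events of the library. A floor of 3 events is 0.412 to 1.40 EPM in the QKI-5 libraries and 21.8 to 101 EPM in the controls, so control values are coarse and 1 event in control replicate 3 is 33.5 EPM. Positions are printed as deposited, and whether each is the crosslinked base or the base beside it is not stated in the sources read, so single-base distances may be off by 1 nt. Intervals and floors cover counting error only. Whether PCR copies of 1 cDNA had been merged is unknown here. Nothing in the labels says that replicates came from different cultures, so the p-values rest on a spread between libraries that may be purely technical. Markers of bronchial epithelium were not checked, since crosslink counts of a precipitated protein are not expression levels. EPM in a host depends on how much of the transcript a cell holds and on how much of it is bound, and these cannot be told apart.

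All 4 hosts carried QKI-5 events in every QKI-5 library, and per length they differed. MIR31HG had the densest crosslinking, with 8.20, 5.79 and 7.28 EPM per kb in QKI-5 replicates 1, 2 and 3. MIR22HG had 2.50, 5.48 and 2.25 EPM per kb and VMP1 had 2.87, 2.71 and 2.87 EPM per kb. MIR17HG had the least, 1.04, 1.59 and 0.512 EPM per kb. The 3 values of MIR31HG lay above all values of the other hosts, and those of MIR17HG lay below all of them. MIR22HG and VMP1 overlapped.

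**Figure D1:**
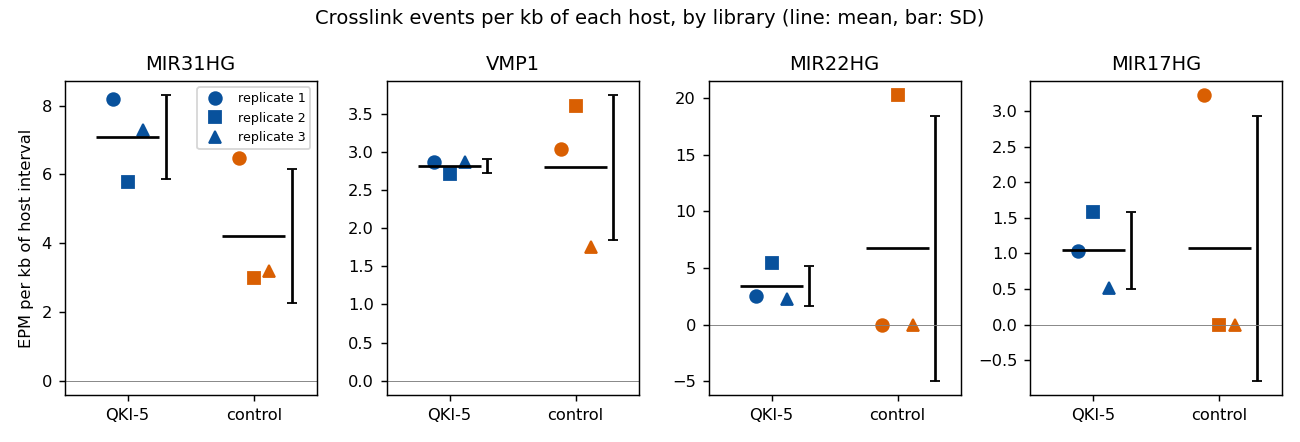
Crosslink density of the 4 host transcripts in EPM per kb (y axis) for the QKI-5 libraries on the left of each panel and the control libraries on the right, 1 symbol per library, with the mean as a line and the SD as a bar that runs below 0 where 1 control holds all events. QKI-5 libraries of MIR31HG sit between 5.79 and 8.20 EPM per kb, and in MIR22HG and MIR17HG only 1 control library has any event.

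MIR31HG is a long noncoding RNA that contains miR-31, a microRNA of epithelial cells. It held 6294, 1309 and 2218 events in the QKI-5 libraries and 94, 13 and 10 events in the controls. With the antibody this was 864, 611 and 768 EPM, against 682, 313 and 335 EPM without it. Of the QKI-5 libraries 2 lay above every control, while QKI-5 replicate 2 lay below control replicate 1, so the groups overlapped. The mean was 748 ± 128 EPM with the antibody and 443 ± 206 EPM without it (SD, n = 3 each, two-sided exact permutation p = 0.2, where the smallest p this test allows is 0.1). Pooled over libraries the ratio was 1.43 (95% exact interval 1.19 to 1.73). That interval treats events as independent and leaves out the spread between libraries, so it does not show a difference between the groups.

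In a model fitted across all tested regions, the log2 fold change of MIR31HG, QKI-5 over control, was 1.19 (SE 0.56), with an adjusted p of 0.218 by edgeR. The median of all 29939 regions tested was 0.78 with this scaling, so MIR31HG stood 0.41 above the middle of the table. With library totals as the scale the median was 0.22 and MIR31HG was at 0.63, a gap of the same 0.41. Such a change of scale shifts all regions nearly alike, so the equal gap is no separate support. With distinct positions counted the gap was 0.19, and with no filter on low counts it was -0.005. MIR31HG was not called. Without control replicate 1 its log2 fold change was 2.74 and it passed (adjusted p = 7.35e-04 by edgeR), but the median of all regions was then 6.69, so that MIR31HG lay below the middle. In the full fit 0.772% of regions were called higher and 0.107% lower, and 18.5% had an unadjusted p under 0.05, 17.5% on the higher side. Without control replicate 1, 1.58% were called higher.

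Crosslinks ran along the whole of MIR31HG and thinned toward its 3′ end. The interval was divided into 10 equal parts of 10.5 kb, numbered from the 5′ end. Part 1 held 27.6, 31.5 and 26.6% of the host's events in QKI-5 replicates 1, 2 and 3. Part 10 held 1.14, 1.604 and 0.902%. Between them the mean shares fell with 1 break, a part 5 of 15.3 ± 0.2% (SD, n = 3) after a part 4 of 8.8 ± 0.8%. Pooled controls, 117 events in all, showed 30.8% (95% exact interval 22.6 to 39.97) in part 1 and 11.97% (6.70 to 19.3) in part 5. They held 0 events in part 10, which allows a share of up to 3.10%. The QKI-5 means of these 3 parts lay inside the control intervals, so a difference in the profile was not detectable at the depth of the controls.

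**Figure D2:**
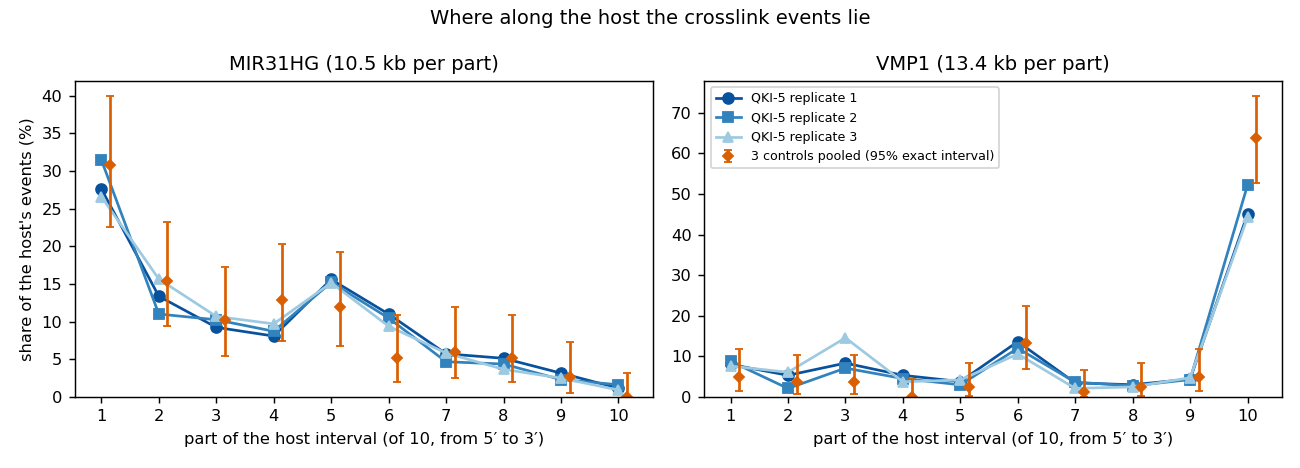
Share of each host's crosslink events (y axis, %) in each of 10 equal parts of the host from 5′ to 3′ (x axis) for MIR31HG and VMP1, with a line for each QKI-5 library and diamonds with 95% exact intervals for the pooled controls. MIR31HG declines from part 1 with a higher part 5, and VMP1 has 44.2 to 52.2% of its QKI-5 events in part 10.

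The miR-31 hairpin starts 47513 nt from the 5′ end of MIR31HG. Before it the QKI-5 density was 11.4 ± 1.83 EPM per kb (SD, n = 3) and after it 3.53 ± 0.760 EPM per kb. The 5 kb upstream of the interval held 1.52 ± 0.926 EPM per kb on the same strand, and the 5 kb downstream held 4.13 ± 0.900. MIR31HG as a whole was thus 4.68 times as dense as the stretch before it and 1.72 times as dense as the stretch after it. Part 10, with 1.22 ± 0.36% of the events, was sparser than the average of the host and than the sequence past its 3′ end. It held 72, 21 and 20 QKI-5 events in 10.5 kb, while the 5 kb downstream held 188, 38 and 53. The density thus rose again past the end of the interval.

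A single 50 nt bin, chr9:21553848-21553897 on the minus strand, held the most QKI-5 events of the host. It lies 5800 to 5849 nt from the 5′ end and held 363, 72 and 80 events in QKI-5 replicates 1, 2 and 3. That is 49.8, 33.6 and 27.7 EPM, a mean of 37.0 ± 11.5 EPM (SD, n = 3). The controls held 1, 0 and 0 events there, for a pooled ratio of 8.75 (95% exact interval 1.56 to 346). Within the bin, position 21553864 alone held 62, 23 and 25 events. The bin was picked as the densest, so its level is a description, and with 1 control event its ratio has hardly any upper limit.

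The next bin downstream, 5850 to 5899 nt from the 5′ end, held 55, 21 and 23 QKI-5 events and no control event. A neighbouring pair of bins lay in part 5, shortly before miR-31. One, 43400 to 43449 nt from the 5′ end, held 107, 16 and 45 QKI-5 events and 1, 0 and 0 control events. The other, 43350 to 43399 nt from the 5′ end, held 62, 19 and 19 QKI-5 events and no control event. This pair ended 4064 and 4114 nt before the miR-31 hairpin.

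The remaining bin of the 5 densest, 9150 to 9199 nt from the 5′ end, held 49, 19 and 25 QKI-5 events and 4, 1 and 0 control events. Its pooled ratio was 0.316 (95% exact interval 0.131 to 0.996), so relative to library totals the pooled controls were denser here. Without the 4 events of control replicate 1 a single control event would remain.

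Most positions were seen in 1 library. Of 5411 positions with a QKI-5 event in MIR31HG, 89 were seen in all 3 libraries and 508 in a pair of them. Of its 2109 bins, 1371 held a QKI-5 event and 295 did so in all 3 libraries. Event counts per bin, as log2 with 1 event added, correlated with Pearson's r of 0.54, 0.58 and 0.47 between the 3 pairs of libraries. These points share a transcript and its depth, and no p is given. The 5 densest bins held 10.1, 11.2 and 8.66% of the events.

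VMP1 encodes vacuole membrane protein 1, a protein of the endoplasmic reticulum needed for autophagosome formation. Its 3′ end overlaps the primary transcript of miR-21, an abundant microRNA that is also known to be transcribed from a promoter of its own inside VMP1. VMP1 held 2796, 778 and 1108 events in the QKI-5 libraries and 56, 20 and 7 events in the controls. On the EPM scale the antibody libraries were at 384, 363 and 384, and the no-antibody libraries were at 406, 482 and 235. The QKI-5 values lay inside the range of the controls.

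The mean of VMP1 was 377 ± 11.9 EPM with the antibody and 374 ± 127 EPM without it (SD, n = 3 each, two-sided exact permutation p = 1). The pooled ratio was 0.958 (95% exact interval 0.771 to 1.21). By edgeR its log2 fold change was 0.60 (SE 0.51) at an adjusted p of 0.547, below the median of 0.78 over all regions, and it was -0.04 with library totals. It was not called. Over the whole VMP1 interval no difference was detectable with these controls, which differed among themselves more than the QKI-5 libraries did, and the interval of the pooled ratio leaves that spread out.

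The events of VMP1 were concentrated at the 3′ end of the interval, beside miR-21. Events on the VMP1 transcript and on the primary transcript of miR-21 cannot be told apart there. Of the 10 equal parts of VMP1, part 10 held 45.0, 52.2 and 44.2% of the host's events in the QKI-5 libraries. In controls 1 and 2 it held 67.9 and 75%, and in control replicate 3 it held 0 of 7 events. In parts 1 to 9 no QKI-5 mean was above the 12.04% of part 6. The pooled control share of part 10 was 63.9% (95% exact interval 52.6 to 74.1), and the 3 QKI-5 values lay below this interval. Control replicate 3, at 0, lay below the QKI-5 values in turn.

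Within that part, a block of 3.5 kb ending just before the miR-21 hairpin held most of the events. Its length was set after its values were seen, so its levels are a description. It is 2.62% of the length of VMP1 and held 1118, 377 and 417 events in QKI-5 replicates 1, 2 and 3, which are 39.99, 48.5 and 37.6% of the host's events. In controls 1, 2 and 3 it held 37, 15 and 0 events, which are 66.1, 75 and 0%.

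Scaled to the library, the block took 153, 176 and 144 EPM with the antibody, against 268, 362 and 0 EPM without it. The QKI-5 libraries lay close together and inside the range of the controls. The mean was 158 ± 16.2 EPM with the antibody and 210 ± 188 EPM without it (SD, n = 3 each, two-sided exact permutation p = 0.7). Control replicate 3, with 7 events in all of VMP1, was at 0 in the block. The rest of VMP1 held 230, 187 and 239 EPM with the antibody and 138, 121 and 235 EPM without it (two-sided exact permutation p = 0.3).

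The edge of the block was steep. The 3.5 kb just before it held 19, 4 and 17 QKI-5 events and no control event, and the block was 45.7 times as dense in QKI-5 libraries. The 3.5 kb after the hairpin held 97, 36 and 71 QKI-5 events and 2, 0 and 6 control events. The block was 8.66 times as dense as that stretch and 26.9 times as dense as the rest of VMP1, at 45.1 ± 4.64 EPM per kb against 1.68 ± 0.213 EPM per kb (SD, n = 3). The fall in density past the hairpin was smaller than the step at its far end, and crosslinks went on at 5.21 ± 1.65 EPM per kb downstream.

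**Figure D3:**
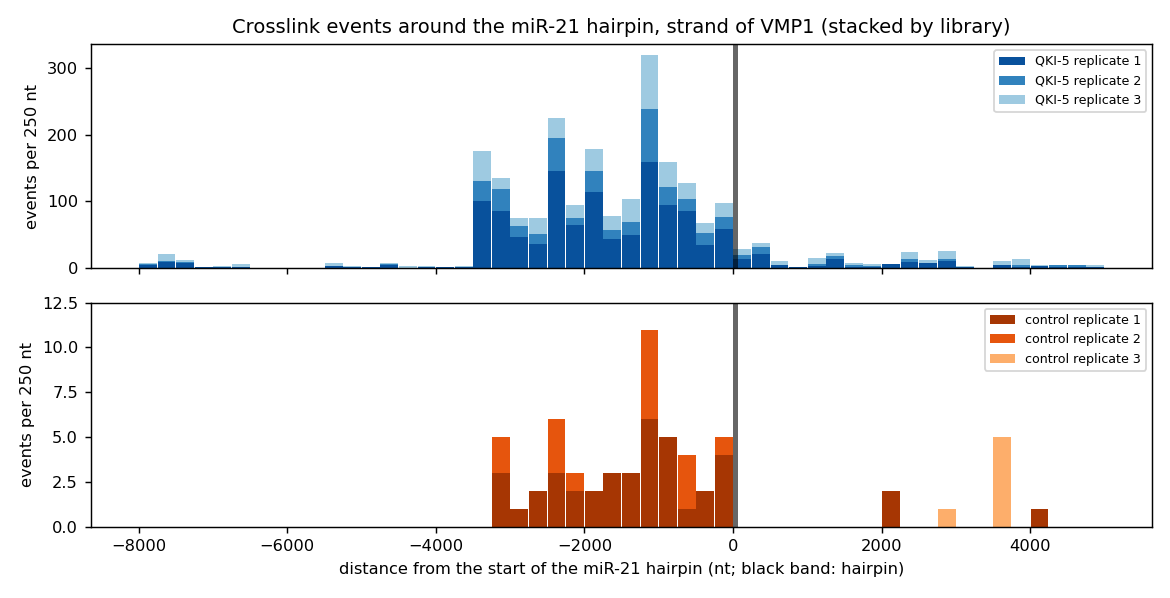
Crosslink events per 250 nt (y axis) by distance from the start of the miR-21 hairpin (x axis, nt), on the strand of VMP1, stacked by library, with the QKI-5 libraries above and the controls below on a scale of their own. The 3.5 kb before the hairpin hold 1912 QKI-5 events and 52 control events, and the 3.5 kb before those hold 40 and 0.

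The 5 densest 50 nt bins of VMP1 all lay in this block, between 765 and 3315 nt before the hairpin. The densest, chr17:57917363-57917412 on the plus strand, held 63, 26 and 46 QKI-5 events and 3, 1 and 0 control events. Over the QKI-5 libraries it averaged 12.2 ± 3.64 EPM (SD, n = 3), and its pooled ratio was 0.573 (95% exact interval 0.219 to 2.13). The bin beside it held 55, 42 and 19 QKI-5 events and 1 control event. The bin 3315 nt before the hairpin held 37, 28 and 34 QKI-5 events and no control event, which at this control depth allows a ratio under 1. No bin of the 5 could be told from control by its counts.

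In VMP1 too most positions were seen in 1 library. Of 2706 positions with a QKI-5 event in VMP1, 52 were seen in all 3 libraries and 192 in a pair of them. Of 2677 bins, 106 held events in all 3, and r between libraries was 0.53, 0.52 and 0.49. On the opposite strand VMP1 held 47, 11 and 17 QKI-5 events and 2, 0 and 0 control events. The sense share was thus 98.3, 98.6 and 98.5% with the antibody and 96.6, 100 and 100% without it. Over all 4 hosts the sense share was 99.5% in each QKI-5 library and 98.7 to 100% in controls (two-sided exact permutation p = 1).

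MIR22HG is the short noncoding host of miR-22. It held 87, 56 and 31 events in the QKI-5 libraries and 0, 4 and 0 events in the controls. The antibody libraries were thus at 11.9, 26.1 and 10.7 EPM and the no-antibody libraries at 0, 96.4 and 0 EPM. All control events lay in control replicate 2, at 2 positions with 2 events each. The pooled ratio was 0.739 (95% exact interval 0.283 to 2.74), and by edgeR the log2 fold change was 0.25 (SE 0.88) at an adjusted p of 0.908. With library totals it was -0.36. No direction could be read for MIR22HG.

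The crosslinks of MIR22HG stood out from the sequence on both sides of it on the same strand. The 5 kb upstream held 2, 0 and 0 QKI-5 events and the 5 kb downstream 10, 0 and 3, with no control event. The host was 186 times as dense as the first and 21.2 times as dense as the second. The value of 186 rests on 2 events of QKI-5 replicate 1, under the floor of 3 events, so its size is not reliable. Inside the host the events were spread out, with 54, 25 and 14 before the miR-22 hairpin and 33, 31 and 17 after it in QKI-5 replicates 1, 2 and 3. Part 6 of 10, just past the hairpin, held 6, 20 and 3 events, and only in QKI-5 replicate 2 did it stand out, with 35.7% of that library's events in the host.

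No single base of MIR22HG recurred in all 3 QKI-5 libraries. Of 123 positions 3 were shared by a pair of libraries. Of 96 bins 57 held a QKI-5 event and 4 did so in all 3 libraries, with 4 to 6 QKI-5 events each. The densest of these, chr17:1618517-1618566 on the minus strand, held 1, 3 and 2 QKI-5 events and no control event. The second held 3, 2 and 1 QKI-5 events, and 2 events in control replicate 2. These counts are near the floor of 3 events in each library.

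MIR17HG is the noncoding host of the miR-17-92 cluster, 6 hairpins in a row whose microRNAs are known to promote proliferation and whose host is a target of the transcription factor MYC. It held 51, 23 and 10 events in the QKI-5 libraries and 3, 0 and 0 events in the controls. These are 7.002, 10.7 and 3.46 EPM with the antibody, against 21.8, 0 and 0 EPM without it. Control replicate 1, with 3 events, was above all QKI-5 libraries on this scale, and the pooled ratio was 0.476 (95% exact interval 0.157 to 2.35). MIR17HG did not pass the filter on low counts, so 3 of the 4 hosts were tested. Without the filter edgeR gave it a log2 fold change of 0.03 (SE 0.99) at an adjusted p of 0.982, where the median of all regions was 1.66.

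The events of MIR17HG began well inside the interval. Part 1 of 10 held none in any library, and the 5 kb upstream held none either. Part 4, which ends just before the first hairpin at 2785 nt from the 5′ end, held 24, 6 and 3 events, or 47.1, 26.1 and 30.0% of the host's QKI-5 events by library. It held more than any other part in QKI-5 replicates 1 and 2, and as many as part 6 in replicate 3. The 5 kb downstream held 36, 18 and 2 QKI-5 events and no control event, 0.936 ± 0.772 EPM per kb, which is close to the 1.05 ± 0.538 EPM per kb of the host itself (SD, n = 3 each).

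Divided by the cluster, MIR17HG held 29, 7 and 3 QKI-5 events in the 2785 nt before the hairpins. It held 4, 5 and 2 in the 314 nt between hairpins, and 18, 11 and 5 in the 3184 nt after them. The 6 hairpins, 473 nt together, held none. The short stretches between hairpins were denser, 3.79 ± 3.16 EPM per kb, than the sequence before the cluster, 0.992 ± 0.551 EPM per kb, with a spread that reaches both values (SD, n = 3). No position was shared between QKI-5 libraries among 67, and 1 of 136 bins held an event in all 3. That bin, chr13:92003124-92003173 on the plus strand, held 1, 3 and 2 events. It runs into the start of the miR-19a hairpin, but its events lay outside that hairpin, whose nearest events were 3 nt upstream and 4 nt downstream.

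Across the 4 hosts, the hairpins themselves were almost free of crosslinks. The 9 hairpins, 701 nt in all, held 0, 0 and 1 QKI-5 events in replicates 1, 2 and 3. At the density of the 500 nt on each side, other hairpins left out, they would have held 16.9, 11.8 and 8.0. Summed, 1 event stood against 36.7, a ratio of 0.0273 (95% exact interval 6.91e-04 to 0.152, counting error of the hairpin events only). All 9 hairpins lay below the density of their flanks, as a hairpin with no event must where its flanks hold any.

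The single event was in the hairpin of miR-21 in QKI-5 replicate 3, at base 39 counted from 1 at the 5′ end of the hairpin printed above. The flanks of that hairpin held 127, 52 and 52 QKI-5 events, which is 16.6 events for its length, and its nearest outside events lay 24 nt upstream and 52 nt downstream. The position of this hairpin was checked less closely than that of the others. The other 8 hairpins held none against 20.03 at flank density, which allows a ratio of up to 0.184. The flanks of neighbouring MIR17HG hairpins overlap, so these are not independent counts.

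The hairpin of miR-31 had 34, 12 and 19 QKI-5 events in its flanks, which is 4.62 for its length, and none inside. Its nearest events were 50 nt upstream and 57 nt downstream. The hairpin of miR-22 had 13, 26 and 3 events in its flanks, which is 3.57 for its length, and its nearest events were 100 nt upstream and 40 nt downstream. For each of these a count of 0 allows up to 3.69 events by counting error alone, so miR-22 on its own cannot be told from its flanks. For miR-31 the 4.62 lies just above that limit, which leaves out the clustering of events. Of the 2109 bins of 50 nt in MIR31HG only 1371 held a QKI-5 event, so empty bins were common. The empty hairpin of miR-31 thus cannot be told from its flanks on its own either. The 6 hairpins of MIR17HG together held 0 against 11.9, a ratio of up to 0.311. The flanks of each of them held 12 to 23 events. The copies of miR-19b and miR-92a on other chromosomes are near identical to the hairpins MIR19B1 and MIR92A1, and how reads with several placements were handled is unknown here.

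Controls held no event in the 9 hairpins, against 0.575 at the density of their own flanks. A like depletion in controls was therefore not detectable in these 9 hairpins at this depth, and whether the gap depends on the antibody was not tested. The share of host events inside the hairpins was 0, 0 and 0.0297% with the antibody and 0% in each control (two-sided exact permutation p = 1), where 0 events allow a share of up to 2.38% in control replicate 1.

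The gap was also seen outside these hosts. Another 27 microRNA hairpins outside the 4 hosts, those whose spacing to a neighbouring hairpin was checked, held 12 QKI-5 events against 135 at flank density. Their ratio was 0.0889 (95% exact interval 0.0459 to 0.155), which overlaps that of the host hairpins. All 27 lay below flank density, 18 held no event and none held more than 2. A hairpin with no event must lie below flanks that hold any, and flank density gave only 0.83 to 18.0 events per hairpin. The count of hairpins below flank density is thus no separate support. The most events, 2 each, were in MIR25, MIR15A and MIR16-1, whose flanks held 32, 178 and 185 QKI-5 events. Flanks of close neighbours such as MIR15A and MIR16-1 overlap here too, so these are not independent counts. Over all 36 hairpins 13 events stood against 172 (ratio 0.0757, 95% exact interval 0.0403 to 0.129), and controls held 0 against 4.84. For the controls 0 events allow up to 3.69, so by counting error alone they too lay below flank density over these 36. The overlap of flanks is left out of that limit.

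**Figure D4:**
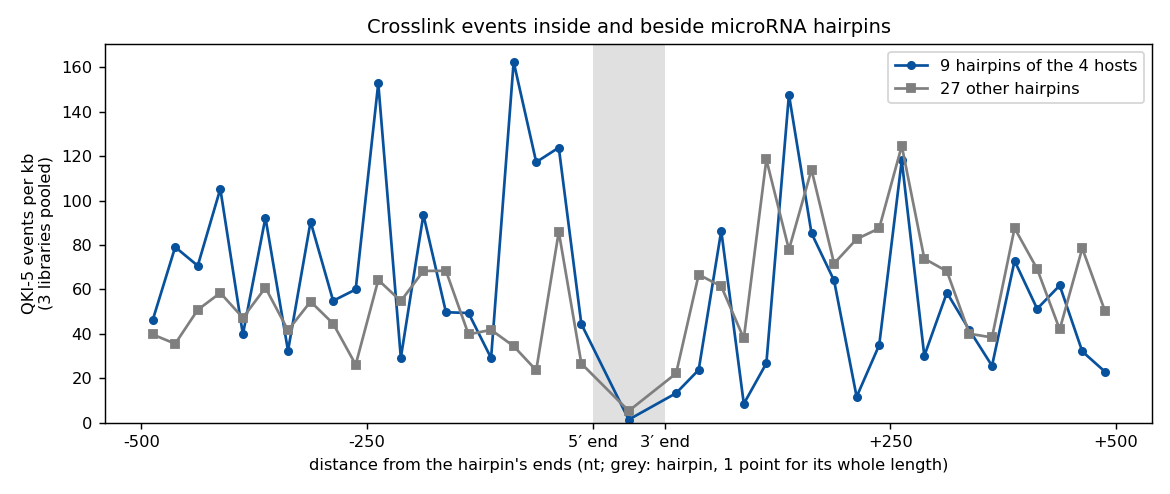
QKI-5 crosslink events per kb, pooled over the 3 QKI-5 libraries (y axis), by distance from the ends of microRNA hairpins in steps of 25 nt (x axis, nt), for the 9 hairpins of the 4 hosts and for 27 other hairpins. The point inside the grey band is the whole hairpin, with 1 event for the hosts and 12 for the others, and both lines are lowest there.

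Cut into 10 kb windows, the hosts gave 27 windows, of which 25 were tested. Windows at the ends of a host were counted whole, with the sequence outside the interval. By edgeR 0 of the 25 were called, where 0.754% of all 29960 windows were called higher and 0.107% lower. Of the 25, 7 had an unadjusted p under 0.05, all of them higher, where 18.4% of all windows passed that level in either direction and 17.5% were higher. The fold change was positive in 24 of them and above the median of all windows in 15. Without control replicate 1, 6 of 27 were called higher, against 1.59% of all windows in that fit, where the median log2 fold change of all windows was 6.69.

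In MIR31HG all 11 windows were tested and 5 had an unadjusted p under 0.05. Among these 5 was the window from chr9:21450001, of which 5.73 kb lie in the host. It held 238, 57 and 62 QKI-5 events, while part 10, which covers its whole host stretch, held 72, 21 and 20. Most events of that window thus lay past the 3′ end of the interval. The densest began at chr9:21550001 and took 195 ± 24.8 EPM with the antibody and a mean of 129 EPM without it, with a log2 fold change of 1.00 (adjusted p = 0.268 by edgeR). The sparsest began at chr9:21460001 and took 8.63 ± 4.67 EPM with the antibody, with a log2 fold change of 0.49 that was -0.06 with library totals. In VMP1, 12 of 14 windows were tested and 2 had an unadjusted p under 0.05. The densest, from chr17:57910001, which contains the block before miR-21, took 174 ± 14.6 EPM with the antibody and a mean of 210 EPM without it. Its log2 fold change was 0.16 (adjusted p = 0.889 by edgeR) and -0.44 with library totals, so it had no stable direction. The sparsest, from chr17:57880001, held 6.22 EPM and was not tested.

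In the series as a whole these windows were busy in the QKI-5 libraries. The 27 windows lay between the percentiles 75.7 and 99.9 of the 174009 windows with a QKI-5 event, whose median was 0.806 EPM. The densest windows of both long hosts stood at the top of that range. The reference takes in every window with any QKI-5 event, however sparse. These ranks leave the controls out, so they do not show dependence on the antibody.

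**Figure D5:**
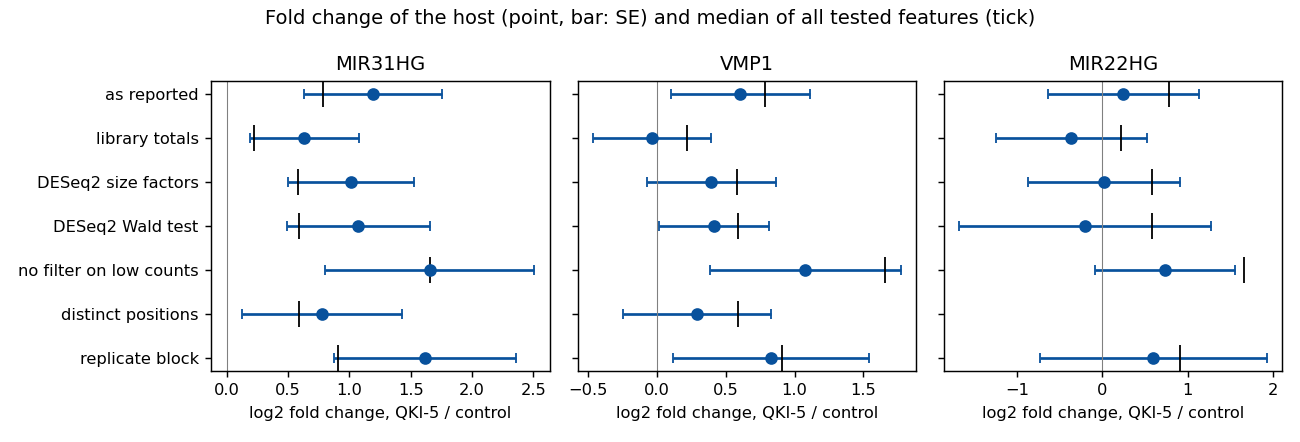
Log2 fold change, QKI-5 over control, of the 3 tested hosts (points, with the SE as bars) under each way of scaling, filtering or testing named at the left, with the median of all tested regions as a tick. MIR31HG lies at or above the tick in every row but "no filter on low counts", where it is at 1.65 against 1.66, and VMP1 and MIR22HG lie below it in the rows shown.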

How the data were processed

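The data are iCLIP crosslink positions in 3 QKI-5 and 3 no-antibody libraries of BEAS2B cells. Each deposited file lists stranded positions on hg19 with a whole-number count of events, not normalized by the authors. The submitters' processing notes name cutadapt and Bowtie, with hg19 as the build. Their versions, the treatment of PCR copies and that of reads with several placements are not given in the sources read. All columns of the files were mapped, and 0 were left unused.

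Events were summed per host interval, 50 nt bin, each of 10 equal parts and hairpin. The whole table, the hosts in place of the windows they fill plus all other 10 kb windows, was fitted in edgeR 4.0.16 under R 4.3.3 with limma 3.58.1. The quasi-likelihood test was used with TMM scaling, low counts removed by filterByExpr, and a model holding only the group. Adjusted p values are Benjamini-Hochberg over all tested regions, and 0.05 is the threshold. DESeq2 1.42.0 was an alternative. Ratios of pooled events have 95% exact intervals (Python 3.11.15, scipy 1.17.1). Single values over libraries were compared with two-sided exact permutation tests, which do not pair the libraries.

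No hg19 genome or annotation was used here, so positions were not placed in exons, introns or UTRs. Hairpin positions on hg19 were entered from background knowledge and then checked against RefSeq (GRCh38.p14), from which no coordinate is printed. Lengths matched for 45 of 45 hairpins, and spacing to a neighbour matched for 33 of the 35 that had one. Of the 9 host hairpins, the distance from the start of the host matched for 2, MIR22 and MIR31, and did not for 7, the 6 of MIR17HG and MIR21. The 6 were kept since their spacing matched. MIR21 had no neighbour, and was kept on its length and because it ends at the last base of the VMP1 interval. Other hairpins without a neighbour were not kept. Of 36 other hairpins, 27 were used. The 9 left out had unequal spacing (2) or no neighbour to check (7).

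All 4 hosts and their 9 hairpins are described. The rule for bins takes the 5 with the highest mean EPM among those with events in all 3 QKI-5 libraries, and the rule for windows takes the densest and the sparsest of the 2 long hosts. The hosts, the lists and the tests were chosen with earlier results of these data known. Alternatives were library totals or DESeq2 size factors as the scale, no filter, distinct positions, each library left out and the replicate number as a block.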

Additional observations from a re-analysis of the deposited data

How the results depend on the processing

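Fold changes of the hosts depended on scaling and on single libraries. On the log2 scale VMP1 was at -0.039 with library totals, and at -0.061 and -0.093 without QKI-5 replicate 2 or 3, and its range with 1 library left out was -0.093 to 1.52. MIR22HG was at -0.36 with library totals, -0.20 by the DESeq2 Wald test and -0.32 without control replicate 1, and its range with 1 library left out was -0.32 to 8.32, the upper end where no control event is left. MIR17HG was at -0.65 and -0.58 without control replicate 2 or 3, within a range of -0.65 to 7.14. MIR31HG stayed positive, from 0.59 to 2.74 with 1 library left out, and was called only without control replicate 1, at 2.74 (adjusted p = 7.35e-04 by edgeR). The VMP1 window from 57910001 was at -0.44 with library totals and with distinct positions, -0.34, -0.59 and -0.45 without QKI-5 replicate 1, 2 or 3, and -0.021 without control replicate 3, within -0.59 to 1.26. The MIR31HG window from 21460001 was at -0.063 with library totals. The number of host windows called was 0 to 6 with 1 library left out. The causes were not tested.

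The 3.5 kb before miR-21 held a mean of 42.0% of the QKI-5 events of VMP1, 34.1% with distinct positions, 35.2% over 3 kb, and 38.8 to 44.2% with 1 QKI-5 library left out. These settings, like the other hairpin flanks, were chosen after seeing the data. The density inside over beside the host hairpins ranged from 0 to 0.0506 with 1 QKI-5 library left out, and was 0 without QKI-5 replicate 3. For the 27 other hairpins every setting gave 0.0531 to 0.115. With 50 nt added on each side, the hairpin share of host events, QKI-5 minus control, was -0.674 percentage points (exact permutation p = 0.7). It was 0.0099 points without them, and 0 to 0.0149 with 1 library left out. The sense share differed by -0.08 points, and by 0.133 without control replicate 2 or 3, within -0.512 to 0.133.

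In the fit with a replicate block, 0 of 29939 regions were called by edgeR, at a smallest adjusted p of 0.191, and 2197 had an unadjusted p under 0.05. MIR31HG was then at 1.62 (adjusted p = 0.564), VMP1 at 0.83 and MIR22HG at 0.60. Deviations of libraries with the same number from their group means correlated at -0.003, 0.102 and 0.075 over 29960 windows. Libraries with different numbers gave -0.106 to 0.058. With few control events per window a shared deviation could go unseen, so a pairing was neither shown nor excluded. The main fit did not use one. Controls limit all comparisons, since a control library had 29810 to 137926 events.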
